A study of Mus musculus with 6 samples.

Results

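Glo1, Ide, Fgfbp3, Btaf1, Nnt, Wdfy1, Entpd4 and Pttg1 are mouse genes whose expression or copy number is known to vary between inbred strains. They were picked by symbol from the 54429 gene rows of each library, and all 8 had a row. The 6 libraries were made from prefrontal cortex (PFC) of 6-month-old mice, 2 per group. WT mice, labelled (C57BL/6 x C3H), received vehicle. P301S Tau mice, labelled PS19(P301S), received either vehicle (Tau) or the EHMT1/2 inhibitor UNC0642 at 1 mg/kg once daily for 3 days (UNC0642). The methods place all of these mice, as littermates of both sexes, on the hybrid B6C3H/F1 background, and the transgene for mutant human tau in the PS19 line is driven by the mouse Prnp promoter.

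An inbred strain carries identical alleles on both of its chromosomes, so a difference between strains is inherited as a unit. In F1 hybrids every animal has a copy of each parental allele, whereas offspring of hybrids can carry either allele or both, and an expression or copy number variant then gives stepped levels between littermates. Glo1 lies in a stretch of DNA that is duplicated in some inbred strains, Ide and Fgfbp3 lie in a stretch that is duplicated in some C57BL/6J mice, and C57BL/6J mice carry a deletion of several exons of Nnt. The genotype of these mice at these loci was not analysed here, and the counts per gene hold no alleles and no exons.

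Prnp, which reports the promoter of the transgene, was at 1652 CPM (read counts scaled to library size with TMM factors) in the library labelled WT replicate 1, at 873 CPM in WT replicate 2, and between 1470 and 1694 CPM in the libraries labelled PS19(P301S). The library labelled WT replicate 1 thus went against its label on this measure. Without it, WT replicate 2 was the only WT library. Of the genes picked by symbol, the same were then called in all 3 comparisons described here. Between Tau and WT, the log2 fold change moved from -0.01 to 0.22 for Ide and from -0.13 to 0.0078 for Btaf1. Mapt was at 576 CPM in the library labelled WT replicate 1, 449 CPM in WT replicate 2 and between 570.5 and 614 CPM in the libraries labelled PS19(P301S). On this measure too, the library labelled WT replicate 1 was like those of the Tau mice. Xist, the RNA that silences an X chromosome in females, had 4104 to 8107 counts in WT replicate 2 and both Tau libraries and 2 to 5 counts in the library labelled WT replicate 1 and both UNC0642 libraries, and the Y-linked Ddx3y showed the opposite order (2 to 18 against 1705 to 2411 counts). Neuronal markers of this cortical tissue were present throughout, at a summed 5457 to 6407 CPM for 6 of 6 genes. Summed oligodendrocyte markers ranged from 1386 CPM in WT replicate 2 to 5278 CPM in Tau replicate 2, and summed markers of striatal neurons from 22.8 to 66.0 CPM in the same libraries. Tau replicate 1 was at only 1954 CPM for oligodendrocyte and 32.6 CPM for striatal markers, against 2841 and 30.1 CPM in the library labelled WT replicate 1. By the threshold given in the next paragraph, all 4 striatal markers, 2 of 6 oligodendrocyte markers, 2 of 5 microglial markers and 1 of 5 astrocyte markers were higher in Tau than in WT mice, and 3 of 5 endothelial markers (Cldn5 at -1.10, log2, edgeR adjusted p = 0.0468) and 1 of 5 tested fibroblast markers were lower. Of the higher ones, the striatal Adora2a and Rgs9, the oligodendrocyte Mobp and Mag and the astrocyte Gfap still overlapped between Tau and WT libraries, with Tau replicate 2 the highest of all. Between UNC0642 and Tau, 3 of 4 striatal markers (Drd1, Drd2 and Adora2a), 2 of 6 oligodendrocyte markers (Mag and Mobp) and 1 of 5 microglial markers (P2ry12) were lower, and the endothelial Cldn5 and the neuronal Syt1 were higher. Between UNC0642 and WT, 2 of 5 endothelial markers and 1 of 5 tested fibroblast markers were lower and Syt1 was higher. Summed astrocyte (1026 to 1108 CPM), microglial (194 to 247 CPM), endothelial (117 to 171 CPM), meningeal fibroblast (28.3 to 53.9 CPM) and choroid plexus markers (1.99 to 4.92 CPM) were all detected. The part of these cell types in the results was not tested, and in bulk tissue fewer cells of a type and less RNA per cell cannot be told apart. Libraries held 17005664 to 28972176 counts in total, and a floor of 3 counts corresponded to 0.107 to 0.178 CPM.

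Of the 8 genes, 7 passed the filter on low counts, and Entpd4 did not. A gene was called, by the threshold of the study, when edgeR's quasi-likelihood test over all 6 libraries gave an unadjusted p under 0.05 and the groups differed by at least 1.2-fold. No gene of the 7 was called between Tau and WT, where 9.81% of the 20409 genes tested were (3.72% higher and 6.1% lower). Between UNC0642 and Tau, 4 of 7 were called (7.69% of all genes tested). Glo1 was lower, as were 3.95% of all genes, and Ide, Btaf1 and Wdfy1 were higher, as were 3.73%. The same 4 genes were called in the same directions between UNC0642 and WT (9.47% of all genes tested, 5.69% lower and 3.77% higher), a comparison that shares the UNC0642 libraries. With Benjamini-Hochberg adjustment over all genes tested, edgeR called 0 of the 7 in each comparison, against 0.157%, 0.0196% and 0.216% of all genes. At an unadjusted p-value under 0.05, these numbers were 1, 4 and 4, against 12.4%, 8.86% and 12.1% of all genes. DESeq2 called 0, 2 and 2 of them after adjustment, namely Glo1 (adjusted p = 0.00195 against Tau and 0.00101 against WT) and Btaf1 (0.000809 and 0.0173), against 0.627%, 0.328% and 1.13% of all genes.

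**Figure D1:**
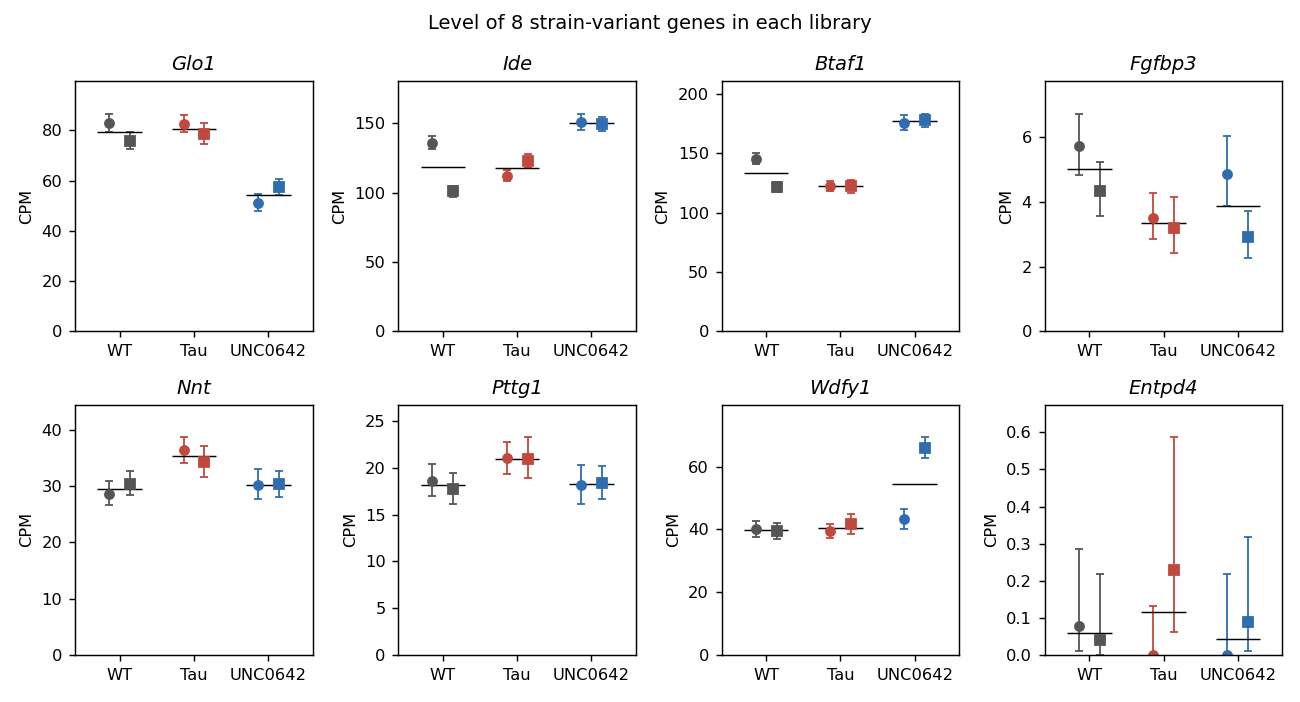
Level of the 8 genes in each library (y axis, CPM scaled by TMM, starting at 0) by group (x axis). Circles are replicate 1 and squares replicate 2, vertical bars are exact 95% Poisson intervals for counting error only, and horizontal lines are group means. The UNC0642 libraries lie below all others for Glo1 and above all others for Ide and Btaf1, and UNC0642 replicate 2 stands alone for Wdfy1.

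Glo1 encodes glyoxalase 1, which detoxifies methylglyoxal, a reactive by-product of glycolysis. It lies on the minus strand of chromosome 17 from 30584936 to 30626871 (GRCm38). Glo1 was at 83.0 CPM in the library labelled WT replicate 1, 75.9 in WT replicate 2, 82.5 and 78.5 in Tau replicates 1 and 2, and 51.1 and 57.5 in UNC0642 replicates 1 and 2. Both UNC0642 libraries were therefore low, the other 4 were high, and the WT and Tau libraries overlapped. Relative to the lowest library, the high libraries were at 1.49 to 1.63 times its level. The WT mean was 79.5 ± 5.1 CPM (SD, n = 2). Tau mice averaged 80.5 ± 2.9 CPM (SD, n = 2), and mice given UNC0642 averaged 54.3 ± 4.5 CPM (SD, n = 2). The log2 fold change was -0.57 between UNC0642 and Tau (standard error 0.094, edgeR adjusted p = 0.144), -0.55 between UNC0642 and WT (standard error 0.094, adjusted p = 0.0543) and 0.02 between Tau and WT (standard error 0.092, adjusted p = 0.952). The library labelled WT replicate 1, which shared the Xist and Ddx3y pattern of the UNC0642 libraries, had the highest level of Glo1.

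The widest step between neighbouring libraries, when the 6 were put in order of Glo1 expression, was 0.40 (log2) and separated UNC0642 replicate 2 from WT replicate 2. Counting error of that step was 0.052 (standard error, log2). Among the 11365 genes with at least 100 counts in every library, 4.88% had a widest step at least as large. The second step, between the UNC0642 libraries, was 0.17.

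Reads of Glo1 could also be placed on Gm13443, a processed pseudogene on the plus strand of chromosome 2 from 35340409 to 35340963 (GRCm38). Its sequence differs from the Glo1 coding sequence at 3 of 552 bases.

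Gm13443, named for this identity after its values were seen, was at 43.5 and 37.7 CPM in the library labelled WT replicate 1 and in WT replicate 2. It was at 43.4 and 44.5 CPM in Tau replicates 1 and 2 and at 30.1 and 29.02 CPM in UNC0642 replicates 1 and 2. As for Glo1, both UNC0642 libraries were below all others. The ratio of Glo1 to Gm13443 counts stayed between 1.70 and 2.01 over the libraries. The counts of both genes are uncertain for this reason, and their sum was also tested, an alternative added with the values known. The sum was at 126.5 and 113.6 CPM in the WT libraries, 125.9 and 123 in the Tau libraries and 81.2 and 86.5 in the UNC0642 libraries, with a log2 fold change of -0.57 between UNC0642 and Tau (standard error 0.084) and -0.52 between UNC0642 and WT (standard error 0.084).

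Dnah8 encodes an axonemal dynein heavy chain. In the GENCODE M21 annotation it starts within the body of Glo1 and runs away from it on the plus strand, from 30624354 to 30877365. The bodies share 2518 bases in that annotation, and the strand setting of the counting was not given in the sources used here. Reads in that overlap therefore cannot be told apart. RefSeq windows instead place the start of Glo1 within 30612610-30612909 and that of Dnah8 within 30626686-30626985. Dnah8 had 144 counts in the library labelled WT replicate 1, 109 in WT replicate 2, 109 and 67 in Tau replicates 1 and 2, and 12 and 26 in UNC0642 replicates 1 and 2. In CPM these were 5.68, 4.26, 3.90, 3.84, 0.711 and 1.147, so both UNC0642 libraries were again the low ones. The log2 fold change was -2.38 between UNC0642 and WT (standard error 0.32, edgeR adjusted p = 0.0193) and -2.02 between UNC0642 and Tau (standard error 0.33, adjusted p = 0.142). Its widest step, at 1.67 (log2), fell between the same pair of UNC0642 libraries and the other 4 as for Glo1.

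The starts of Glo1 and Dnah8 lie apart, and their promoters, taken from RefSeq on GRCm38.p6 because both genes were lower in the same libraries, are given here from 250 bases before to 50 after the start. Capitals mark GC boxes (GGGCGG on either strand, overlapping matches counted), of which the Glo1 window on the minus strand at chr17:30612610-30612909 holds 3 and the Dnah8 window on the plus strand at chr17:30626686-30626985 holds 1. The motif occurs in 35.7% of the 32851 promoter windows of this length. The windows of Ide, Fgfbp3, Btaf1 and Pttg1, not shown, hold 0 each, and a part of the motif in these levels was not tested.
Glo1: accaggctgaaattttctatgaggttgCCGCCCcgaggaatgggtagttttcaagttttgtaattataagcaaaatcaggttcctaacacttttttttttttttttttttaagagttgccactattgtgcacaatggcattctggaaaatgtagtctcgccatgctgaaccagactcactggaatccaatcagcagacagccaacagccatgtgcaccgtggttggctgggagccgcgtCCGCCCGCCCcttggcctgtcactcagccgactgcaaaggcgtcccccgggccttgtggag
Dnah8: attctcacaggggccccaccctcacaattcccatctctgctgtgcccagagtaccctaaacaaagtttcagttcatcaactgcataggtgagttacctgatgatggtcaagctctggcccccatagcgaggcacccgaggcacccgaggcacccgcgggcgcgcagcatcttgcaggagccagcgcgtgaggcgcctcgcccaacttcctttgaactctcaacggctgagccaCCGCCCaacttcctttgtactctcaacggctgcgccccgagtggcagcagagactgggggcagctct

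The nearest tested gene on the other side was Btbd9, which was at 118 and 130 CPM in WT, 136 and 127 in Tau and 108 and 116 in UNC0642 libraries and was not called. Zfand3 (46.9 to 52.8 CPM) and Abcg1 (75.1 to 88.6 CPM) were not called in any comparison. Glp1r, the receptor for the incretin hormone GLP-1, had 10 and 8 counts in the library labelled WT replicate 1 and in WT replicate 2, 45 and 13 in Tau replicates 1 and 2, and 6 and 4 in UNC0642 replicates 1 and 2. It was called between UNC0642 and Tau with a log2 fold change of -2.20 (standard error 0.65, edgeR adjusted p = 0.419) and between Tau and WT with 1.75 (standard error 0.60, adjusted p = 0.312), and in both comparisons Tau replicate 1 stood far from the other libraries. Other glyoxalase-pathway genes fixed in a list (Hagh, Park7, Akr1b3 and Akr7a5) were called once in 3 comparisons: Akr1b3, an aldose reductase, was lower in UNC0642 than in WT mice (log2 fold change of -0.61, standard error 0.26). Hagh, which encodes the next enzyme after Glo1 in methylglyoxal removal, had a log2 fold change of -0.02 between UNC0642 and Tau (standard error 0.10).

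**Figure D2:**
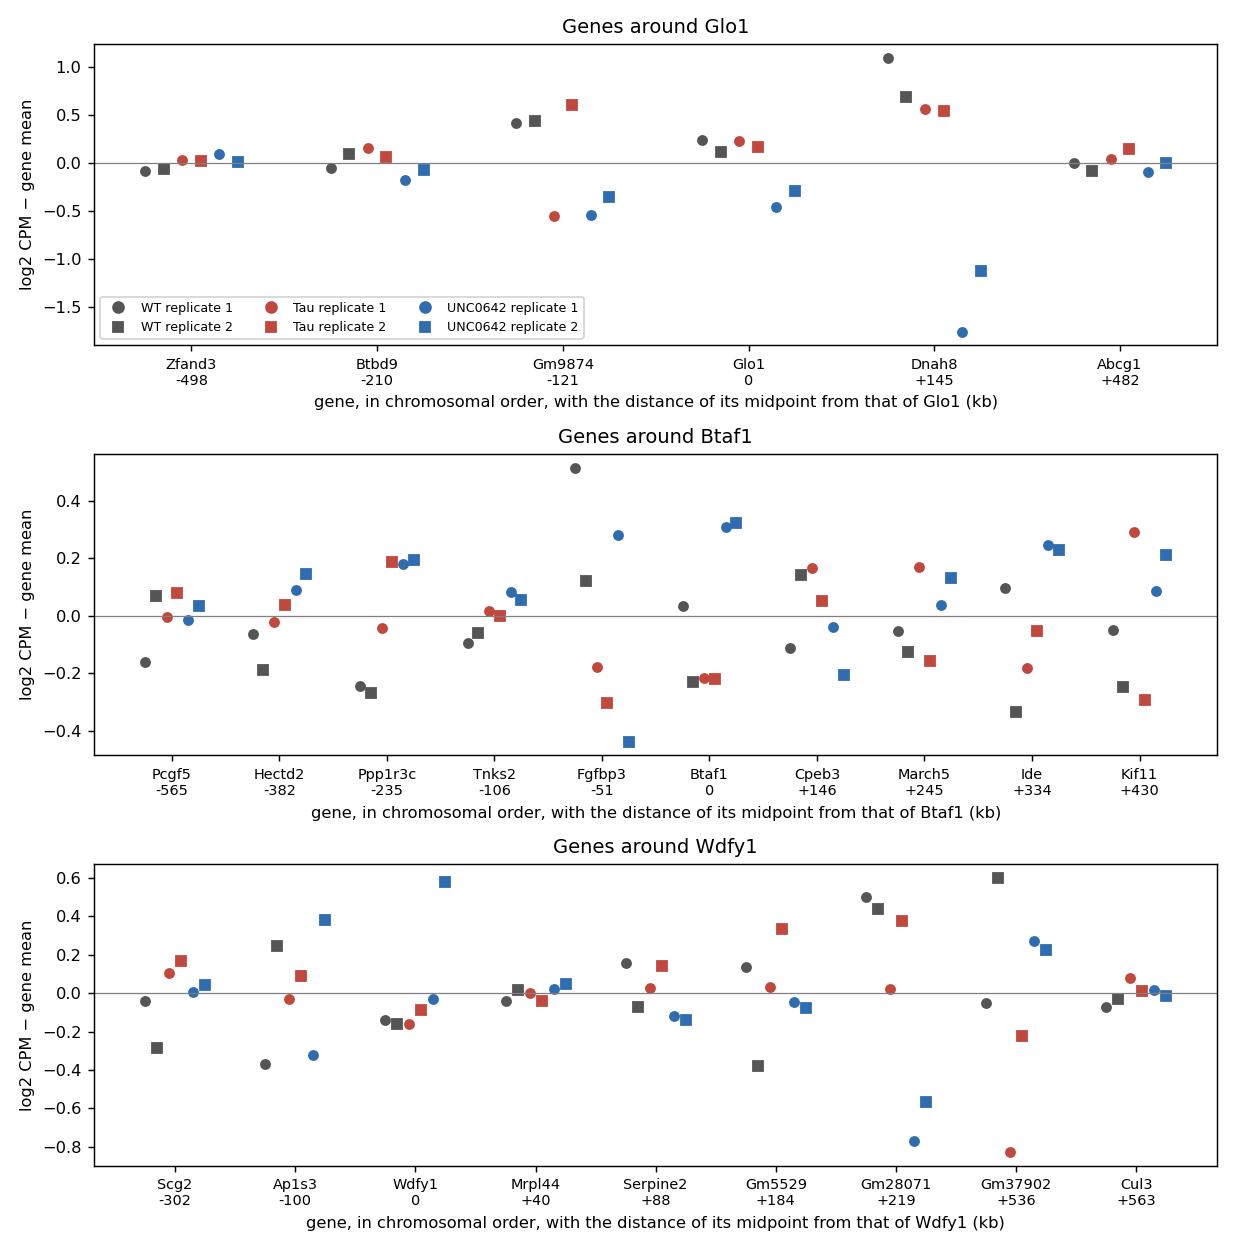
Levels of genes around Glo1, Btaf1 and Wdfy1 in each library (y axis, log2 CPM minus the mean of the gene over 6 libraries), for tested genes within 0.5 Mb with a mean of at least 1 CPM, in chromosomal order (x axis, with the distance between midpoints in kb). Circles are replicate 1 and squares replicate 2. The UNC0642 libraries lie lowest for Glo1 and Dnah8 together and highest for Btaf1 and Ide. By smaller differences they are also lowest for Btbd9 and Serpine2 and highest for Tnks2, Hectd2 and Mrpl44. They are lowest for Gm28071 as well, by a step of 0.59 (log2). They lie apart from each other for Wdfy1, while Mrpl44 beside it ranges over only 0.09 (log2).

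Ide, Fgfbp3 and Btaf1 lie close together on chromosome 19. Ide encodes the insulin-degrading enzyme, a protease that also cleaves amyloid beta, and lies on the minus strand from 37268743 to 37337852. Btaf1 encodes an ATPase that removes the TATA-binding protein from DNA and lies on the plus strand from 36926079 to 37012752. Fgfbp3 encodes a secreted carrier of fibroblast growth factors and lies on the minus strand from 36917550 to 36919615, 6.5 kb from Btaf1 and 349.1 kb from Ide.

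Btaf1 was at 145.5 CPM in the library labelled WT replicate 1, 121 in WT replicate 2, 122.2 and 122.1 in Tau replicates 1 and 2, and 176 and 178 in UNC0642 replicates 1 and 2. Its libraries thus stood at 3 levels, with WT replicate 2 and both Tau libraries within 1.01 times the lowest, the library labelled WT replicate 1 at 1.2 times, and both UNC0642 libraries at 1.45 and 1.47 times. The steps between these levels were 0.25 and 0.27 (log2), and the counting error of the wider one was 0.036. A widest step of at least this size was found in 13.9% of the genes with at least 100 counts in every library. Btaf1 had a log2 fold change of 0.53 between UNC0642 and Tau (standard error 0.092, edgeR adjusted p = 0.144), 0.41 between UNC0642 and WT (standard error 0.092, adjusted p = 0.130) and -0.13 between Tau and WT (standard error 0.092, adjusted p = 0.602).

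Ide was at 136 CPM in the library labelled WT replicate 1, 101 in WT replicate 2, 112 and 123 in Tau replicates 1 and 2, and 151 and 149 in UNC0642 replicates 1 and 2. The order of its libraries was like that of Btaf1 at the top, but the other 4 were spread out, and its widest step was 0.15 (log2), against which 45.1% of the genes with at least 100 counts had one as large. Ide had a log2 fold change of 0.35 between UNC0642 and Tau (standard error 0.12, edgeR adjusted p = 0.467) and 0.34 between UNC0642 and WT (standard error 0.12, adjusted p = 0.313). WT replicates 1 and 2 differed by 0.43 (log2), more than either of these changes. Ide was not called between UNC0642 and WT without WT replicate 2 (0.14, standard error 0.092) or without either UNC0642 library (0.34 and 0.35, standard errors 0.16), and its value there was 0.57 without the library labelled WT replicate 1. Without Tau replicate 1 or either UNC0642 library it was not called between UNC0642 and Tau (0.29, 0.35 and 0.36). Between Tau and WT, its log2 fold change was -0.01 with all libraries, 0.22 without the library labelled WT replicate 1 and -0.21 without WT replicate 2. In Ide and Btaf1, the 3 libraries with the lowest Xist counts were the 3 highest, and the part of sex in these values was not tested.

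Fgfbp3 followed neither neighbour. It had 145 and 111 counts in the library labelled WT replicate 1 and in WT replicate 2, 98 and 56 in Tau replicates 1 and 2, and 82 and 66 in UNC0642 replicates 1 and 2, or 5.72, 4.34, 3.50, 3.21, 4.86 and 2.91 CPM. Both Tau libraries were below both WT libraries, and UNC0642 replicates 1 and 2 lay on either side of Tau, 0.72 (log2) apart. The log2 fold change was -0.58 between Tau and WT (standard error 0.29, edgeR adjusted p = 0.443). The gene was called in that comparison when WT replicate 2 was left out (-0.76), when UNC0642 replicate 1 was left out (-0.58) or when UNC0642 replicate 2 was left out (-0.58). It was not called without the library labelled WT replicate 1, at -0.37 (standard error 0.35). Between UNC0642 and WT it had a log2 fold change of -0.39 (standard error 0.29) with all libraries and was called, at -0.79, without UNC0642 replicate 1, while it was at -0.05 without UNC0642 replicate 2 and at -0.18 without the library labelled WT replicate 1.

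Between these members, Cpeb3 (74.2 to 96.0 CPM) and March5 (54.3 to 68.1 CPM) were not called in any comparison, nor were Tnks2 (308.8 to 348.7 CPM) and Kif11 (2.12 to 3.22 CPM) at the edges. Ppp1r3c, a glycogen-targeting subunit of protein phosphatase 1 and 180.9 kb from Fgfbp3, was higher in Tau than in WT mice (log2 fold change of 0.33, standard error 0.093) and higher in UNC0642 than in WT mice (0.44, standard error 0.093). Of the fixed lists that go with these members, the proteases Nrd1, Pitrm1, Mme and Ece1 gave 2 calls in 3 comparisons. Mme, which encodes the amyloid-degrading protease neprilysin, was lower in UNC0642 than in Tau mice (-0.68, standard error 0.23), with Tau replicate 2 at 17 CPM against 7.59 to 11.6 CPM in the other libraries. Ece1, an endothelin-converting protease, was higher in Tau than in WT mice (0.28, standard error 0.091). Among Tbp, Dr1 and Drap1, Dr1, a repressor that binds the TATA-binding protein, was higher in Tau than in WT mice (0.31, standard error 0.11). Of Fgfbp1, Fgf1, Fgf2 and Fgf22, Fgf1 was called, higher in Tau than in WT mice (0.34, standard error 0.14).

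Wdfy1 encodes a protein of early endosomes with a FYVE domain and occupies the minus strand of chromosome 1 from 79702262 to 79776143. It was at 40.1 CPM in the library labelled WT replicate 1, 39.5 in WT replicate 2, 39.4 and 41.6 in Tau replicates 1 and 2, and 43.3 and 65.9 in UNC0642 replicates 1 and 2. UNC0642 replicate 2 was high, at 1.67 times the lowest library, and the other 5 libraries lay within 1.10 times. The step below UNC0642 replicate 2 was 0.61 (log2) with a counting error of 0.065, and 1.58% of the genes with at least 100 counts in every library had a widest step as large.

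The call of Wdfy1 between UNC0642 and Tau (log2 fold change of 0.43, standard error 0.16, edgeR adjusted p = 0.484) and between UNC0642 and WT (0.46, standard error 0.16, adjusted p = 0.297) rested on this library. Without UNC0642 replicate 2 the values were 0.10 and 0.12 (standard errors 0.13), and the gene was not called in either, whereas without UNC0642 replicate 1 they were 0.70 and 0.73. It was also not called between UNC0642 and Tau without Tau replicate 1 (0.39, standard error 0.21). Mrpl44, which overlaps the start of Wdfy1 by 126 bases on the other strand, was at 18.4 to 19.6 CPM in all libraries, and Serpine2 and Cul3 were not called in any comparison. The processed pseudogene Gm28071, 181.4 kb away, was lower in both UNC0642 libraries (0.829 and 0.970 CPM) than in the others (1.502 to 2.129 CPM), unlike Wdfy1. The related genes Wdfy2 and Wdfy3 were not called.

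Nnt encodes the transhydrogenase of the inner mitochondrial membrane, which makes NADPH, and lies on the minus strand of chromosome 13 from 119335448 to 119408997. It was at 28.7 and 30.4 CPM in the library labelled WT replicate 1 and in WT replicate 2, 36.3 and 34.3 in Tau replicates 1 and 2, and 30.2 and 30.3 in UNC0642 replicates 1 and 2. Both Tau libraries were above all others, but the whole range was 0.34 (log2), and 47.5% of the genes with at least 100 counts in every library ranged as widely. No library stood apart by a step wider than 0.17. The log2 fold change was 0.26 between Tau and WT (standard error 0.10, edgeR adjusted p = 0.358), a 1.196-fold difference that fell short of the threshold, and -0.22 between UNC0642 and Tau (standard error 0.10, adjusted p = 0.565). Nnt was called between Tau and WT when WT replicate 2 or Tau replicate 2 was left out (0.30 in each case). Of 6 other genes that serve NADPH or redox balance in mitochondria (Idh2, Me3, Mthfd2l, Txnrd2, Gsr and Prdx3), 0 were called in the same test in any comparison.

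Pttg1 encodes securin, which holds separase inactive until chromosomes part, and lies on the minus strand of chromosome 11 from 43420250 to 43426251. It was at 18.6 and 17.7 CPM in the library labelled WT replicate 1 and in WT replicate 2, 21.0 and 21.0 in Tau replicates 1 and 2, and 18.2 and 18.4 in UNC0642 replicates 1 and 2. The Tau libraries were the highest, as for Nnt, and the range of 0.24 (log2) was the narrowest of the 7 genes, with 73.1% of the genes with at least 100 counts ranging as widely. The log2 fold change was 0.21 between Tau and WT (standard error 0.11, edgeR adjusted p = 0.479) and -0.20 between UNC0642 and Tau (standard error 0.11, adjusted p = 0.638). Espl1, which encodes separase, and the cohesin genes Smc1a, Smc3, Rad21, Stag1 and Stag2 were not called in any comparison.

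Entpd4 encodes a nucleotidase of the Golgi and lysosomes. It lies on the plus strand of chromosome 14 from 69337174 to 69367270, and its annotated copy Entpd4b lies on the same strand from 69555424 to 69585520. Their coding sequences of 1839 bases differ at 0 positions, so a read from either fits both. The opening 120 bases, which are the same in Entpd4 and Entpd4b in GENCODE M21, are shown because of this identity.
Entpd4: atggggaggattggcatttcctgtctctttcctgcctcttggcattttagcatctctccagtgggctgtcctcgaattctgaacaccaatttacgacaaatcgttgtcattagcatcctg

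Entpd4 had 2 and 1 counts in the library labelled WT replicate 1 and in WT replicate 2, 0 and 4 in Tau replicates 1 and 2, and 0 and 2 in UNC0642 replicates 1 and 2. Entpd4b had 1, 1, 0, 5, 0 and 3 counts in the same order. These counts were at or near the floor of 3 counts in every library, and no difference was detectable at such counts. How reads that fit both copies were counted was not given in the sources used here, so the counts do not measure how much Entpd4 RNA was present. They are uncertain for both copies and give no measure of strain variation. Of the related nucleotidase genes Entpd1, Entpd2, Entpd3, Entpd5, Entpd6 and Entpd7, Entpd7 was called: it was lower in UNC0642 (11.8 and 12.4 CPM) than in WT libraries (15.6 and 16.9 CPM), with a log2 fold change of -0.42 (standard error 0.13, edgeR adjusted p = 0.251).

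**Figure D3:**
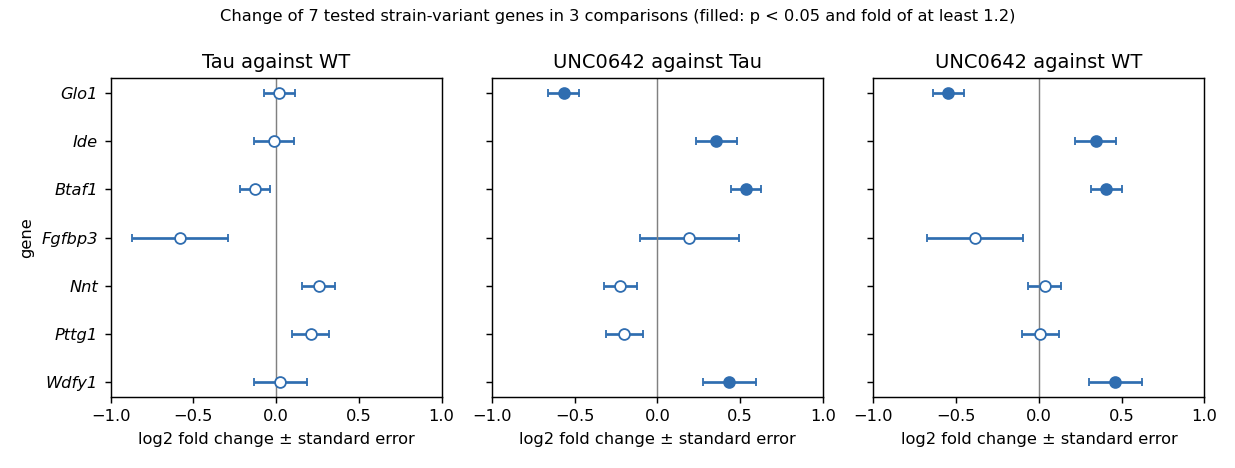
Log2 fold change (x axis, with its standard error as a horizontal bar) of the 7 tested genes (y axis) in each of 3 comparisons from edgeR's quasi-likelihood fit. Filled points mark genes past the threshold of the study, which 0, 4 and 4 genes met. The point for Glo1 lies left and those for Ide, Btaf1 and Wdfy1 right of 0 in both comparisons of UNC0642.

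Over the 7 tested genes, the median range between the lowest and highest library was 0.58 (log2), against 0.55 over all 20409 genes tested, and 0.33 over the 11365 genes with at least 100 counts in every library. Their medians for the difference between replicates were 0.13 in WT, 0.078 in Tau and 0.017 in UNC0642, against 0.13, 0.12 and 0.091 over the genes with at least 100 counts and 0.19, 0.19 and 0.16 over all genes tested. Wdfy1 (0.61) and Fgfbp3 (0.72) differed far more than that median between the UNC0642 libraries. Groups did not overlap for 3 of 7 genes between Tau and WT (43.2% of all genes tested, 21.9% higher and 21.4% lower), for 6 of 7 between UNC0642 and Tau (41.3%, with 20.4% higher and 20.9% lower) and for 4 of 7 between UNC0642 and WT (44.4%, with 22.1% higher and 22.3% lower). No member ranged over 1 log2 unit, so none met the limit set for a search for genes of like pattern.

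The genes stood in different orders over the libraries. UNC0642 replicates 1 and 2 stood apart together for Glo1 and Btaf1, UNC0642 replicate 2 alone for Wdfy1, and the Tau libraries, by smaller steps, for Nnt and Pttg1. In Glo1 and Btaf1 the widest step coincided with the treatment group, so an inherited difference between these mice and the effect of UNC0642 cannot be told apart. By their Xist and Ddx3y counts, both Tau libraries had the female pattern and both UNC0642 libraries the male pattern. Sex and treatment therefore cannot be told apart between UNC0642 and Tau, for any gene. Between UNC0642 and WT, only the library labelled WT replicate 1 shared the male pattern. For Wdfy1 the widest step fell between the UNC0642 libraries themselves, and for Ide it set WT replicate 2 below the other 5.

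Of 133 other annotated genes within 0.5 Mb of the 8 members, 56 were tested. The study's threshold was met by 8 of them between Tau and WT, 5 between UNC0642 and Tau and 5 between UNC0642 and WT, where it was met by 9.81%, 7.69% and 9.47% of all genes tested. Among these, beside genes already named, Scg2, Rhobtb2 and Hmgcs1 (0.27 to 0.30, log2) were higher and Gm37902 and Gm48342 (-0.86 and -1.90) lower in Tau than in WT mice, Gm37902 and Gm48342 were higher in UNC0642 than in Tau mice (0.80 and 1.69), and Ttc1 was higher (0.36) in UNC0642 than in WT mice. Dnah8 had an adjusted p-value under 0.05 (UNC0642 against WT). A range of at least 1 log2 unit was found in 21 of the 56 tested neighbours, against 28.4% of all genes tested. Of the 43 neighbours with a mean of at least 1 CPM, 9 reached it, and it was widest in Dnah8 at 2.85. Over all 36 genes of the functional lists, 35 were tested and 3, 1 and 2 were called in the 3 comparisons. Their median range was 0.35 (log2).

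A list of 20 other genes with strain variants gave 14 tested genes, with 2, 5 and 3 called between Tau and WT, UNC0642 and Tau, and UNC0642 and WT, against 9.81%, 7.69% and 9.47% of all genes tested. These calls include Dnah8 and Glp1r, the neighbours of Glo1 already counted above among the genes near the members. The study reports Alad and Glp1r, from these same libraries, as raised in Tau mice and reversed by UNC0642. The list was chosen with earlier results of these data known, so its counts are no independent test against those shares. Gpnmb, a glycoprotein of lysosomes that carries a stop mutation in some strains, had 70 and 56 counts in the library labelled WT replicate 1 and in WT replicate 2, 64 and 36 in Tau replicates 1 and 2, and 10 and 16 in UNC0642 replicates 1 and 2. Like Glo1 and Dnah8, it was low in both UNC0642 libraries, with a log2 fold change of -1.73 against Tau (standard error 0.37, edgeR adjusted p = 0.279) and -1.91 against WT (standard error 0.36, adjusted p = 0.0777). Alad, the second enzyme of haem synthesis and duplicated in some strains, was instead high in both Tau libraries (43.3 and 46.9 CPM against 28.5 to 31.5 CPM in the others), and was called between Tau and WT and between UNC0642 and Tau. Ahr, the aryl hydrocarbon receptor, was higher in UNC0642 than in Tau mice (0.38, standard error 0.14), and Gabra2, a GABA-A receptor subunit, was higher in UNC0642 than in WT mice (0.27, standard error 0.11). H2-Ea-ps, which is silent in C57BL/6 mice, had 0 counts in all 6 libraries.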

How the data were processed

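RNA of the PFC was measured in 6 libraries, 2 biological replicates for each of WT, Tau and UNC0642 mice. Per the labels and methods, strand-specific libraries were made after ribosomal RNA depletion, reads were trimmed with Cutadapt and aligned with TopHat2, as stated to RefSeq mRNAs, and the submitters' processing notes name mm10. The authors counted reads per gene with featureCounts and deposited raw counts. In 2 libraries, 26 names had turned into dates, and those genes were joined by position. Coordinates came from GENCODE M21 (GRCm38), in which 53851 of 54429 symbols were found.

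Counts were analysed in R 4.3.3 with edgeR 4.0.16: filterByExpr (minimum count 10, minimum total 15) kept 20409 genes, TMM factors ran from 0.966 to 1.04, and the quasi-likelihood fit of 3 group means left 3 residual degrees of freedom. Standard errors were derived from the F statistic. Log2 CPM used a prior count of 2. SDs rest on 2 libraries, and intervals cover counting error only. Near-identical copies were sought with blastn 2.17.0. The fit was also run on simulated counts, with planted changes larger than those of the members and a dispersion common to all genes. That run therefore does not show how well changes of the reported size are detected. Alternatives were DESeq2 1.42.0 (test or size factors), other filters and thresholds, 2-group fits, a replicate block and fits without each library. The members and lists were chosen with earlier results of these data known. Genes are named if they are members, or if listed or neighbouring genes met a call or ranged over 1 log2 unit, with examples that did not; Gm13443 was named for its identity with Glo1. The methods call the samples of a group biological duplicates. The edgeR p-values weigh a difference between groups against the spread within groups, estimated with information from all genes tested. A neighbouring gene that met a call is not reported here.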

Additional observations from a re-analysis of the deposited data

How the results depend on the processing

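The members called between Tau and WT mice numbered 0 in the reported fit and 1 (Fgfbp3) with library size alone as scaling, without a filter on low counts, or in a fit of the compared groups alone. Between UNC0642 and Tau and between UNC0642 and WT the 4 called genes became 0 at a fold change of at least 1.5 and 0 at an adjusted p-value under 0.05, while DESeq2 size factors, the DESeq2 Wald test, either other filter, library size and the 2-group fits gave 4. With each library left out in turn the numbers ran from 0 to 2 between Tau and WT, from 2 to 4 between UNC0642 and Tau and from 2 to 4 between UNC0642 and WT. Glo1 and Btaf1 were called in both comparisons of UNC0642 in each of these fits.

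Log2 fold changes that changed sign when a library was left out were near 0 or noisy, with ranges of -0.042 to 0.083 for Glo1, -0.21 to 0.22 for Ide, -0.25 to 0.0078 for Btaf1 and -0.0086 to 0.065 for Wdfy1 between Tau and WT, -0.21 to 0.53 for Fgfbp3 between UNC0642 and Tau, and -0.010 to 0.078 for Nnt and -0.028 to 0.043 for Pttg1 between UNC0642 and WT. Replicate numbers were not treated as pairs, since same-numbered libraries did not deviate together (correlations of -0.034, -0.003 and -0.021 across genes). A replicate block gave 0, 4 and 4 called members and changed no call. Low counts limited Fgfbp3 and Entpd4 most, and reads of Entpd4 also fit its identical copy.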
